A study of Mus musculus with 12 samples.

Results

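The cytosolic ribosomal protein genes were taken as the protein-coding genes of the mouse assembly GRCm38.p6 (the mm10 build) whose symbol begins with Rpl, for the large (60S) subunit, or with Rps, for the small (40S) subunit. The S6 kinase genes, which share the letters Rps6k, and predicted genes were left out. This gave 91 genes of 21900, 56 of the large and 35 of the small subunit. Peaks of antibody-enriched RNA were read from 6 lists, each made from 1 immunoprecipitated (IP) library and its input, from the hippocampus of wild-type female C57BL/6 mice. There were 3 lists from mice aged 18 months (aged) and 3 from mice aged 3 months (young), 12 libraries in all. The study compared 5-methylcytosine (m5C) on hippocampal mRNA between the ages. No label ties the 3 samples of an age to separate animals or pools. The p-values below therefore reflect sample-to-sample spread, some of which could be technical.

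The ribosome translates mRNA into protein. Its small subunit reads the codons and its large subunit joins the amino acids, and each is built from ribosomal RNA and a set of small, mostly basic proteins. The mRNAs of these proteins are among the most abundant of a cell. Many begin with a run of C and T at the cap, the 5′ terminal oligopyrimidine (TOP) motif, through which mTOR and Larp1 adjust their translation together. In neurons such mRNAs are also found in dendrites and axons. m5C is a methylated form of cytosine that occurs in several kinds of RNA, mRNA included. In m5C immunoprecipitation, fragmented RNA is captured with an antibody, so that a peak marks a stretch enriched over input and not a single base.

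The aged lists held 14497 ± 616 peaks and the young lists 9609 ± 952 (SD, n = 3 each), which is 1.51 times as many in aged tissue, so counts of ribosomal protein genes are given beside the length of the lists. The read depth of each list is unknown. A peak depends on how much of a transcript is present as well as on its methylation. In bulk tissue, fewer cells of a type and less RNA per cell cannot be told apart. The hippocampal label was set against marker genes: 9 of 9 neuronal, 5 of 5 astrocyte and 4 of 4 oligodendrocyte markers had a peak in at least 1 list. Of the microglial markers, Cx3cr1 had a peak in all 6 lists and Aif1 in 1 aged list, while Csf1r and P2ry12 had none. Of the endothelial markers, Flt1 was in all 6 lists, Pecam1 in 3 aged lists and 0 young lists and Cldn5 in none, and of the choroid plexus markers Ttr was in 1 young list and Folr1 in none. Neuronal markers with a peak numbered 8.67 ± 0.577 in aged and 7 in young lists (SD, n = 3 each), and astrocyte markers 4.67 ± 0.577 in aged and 3.67 ± 0.577 in young lists. Endothelial markers numbered 2 in aged and 1 in young lists, oligodendrocyte markers 2.33 ± 0.577 in aged and 2 ± 1 in young lists, and microglial markers 1.33 ± 0.577 in aged and 1 in young lists. The part of cell composition in the values below was not tested.

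A peak on the gene's own strand was found in at least 1 list for 58 of the 91 genes (63.7%), against 43.5% of all 21900 protein-coding genes. Rpl23a is among the 58, although its strand was unknown and peaks on either strand were accepted. Ribosomal protein genes are short, with a median span of 3175 bases against 17146 for all genes, and 89 of the 91 spanned under 10 kb. Among all genes under that length, 22.7% had a peak. A peak was found in 37 of 56 large-subunit genes (66.1%) and 21 of 35 small-subunit genes (60%). Of the 58 genes with a peak, 23 (39.7%) had one in all 6 lists, against 32% of the 9530 protein-coding genes with a peak. These 23 were 12 of the 37 large-subunit genes with a peak (32.4%) and 11 of the 21 small-subunit genes with a peak (52.4%). The difference between these shares was not tested. A peak in only 1 list was found in 11 genes (19.0%), against 22.5% of genes with a peak.

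**Figure D1:**
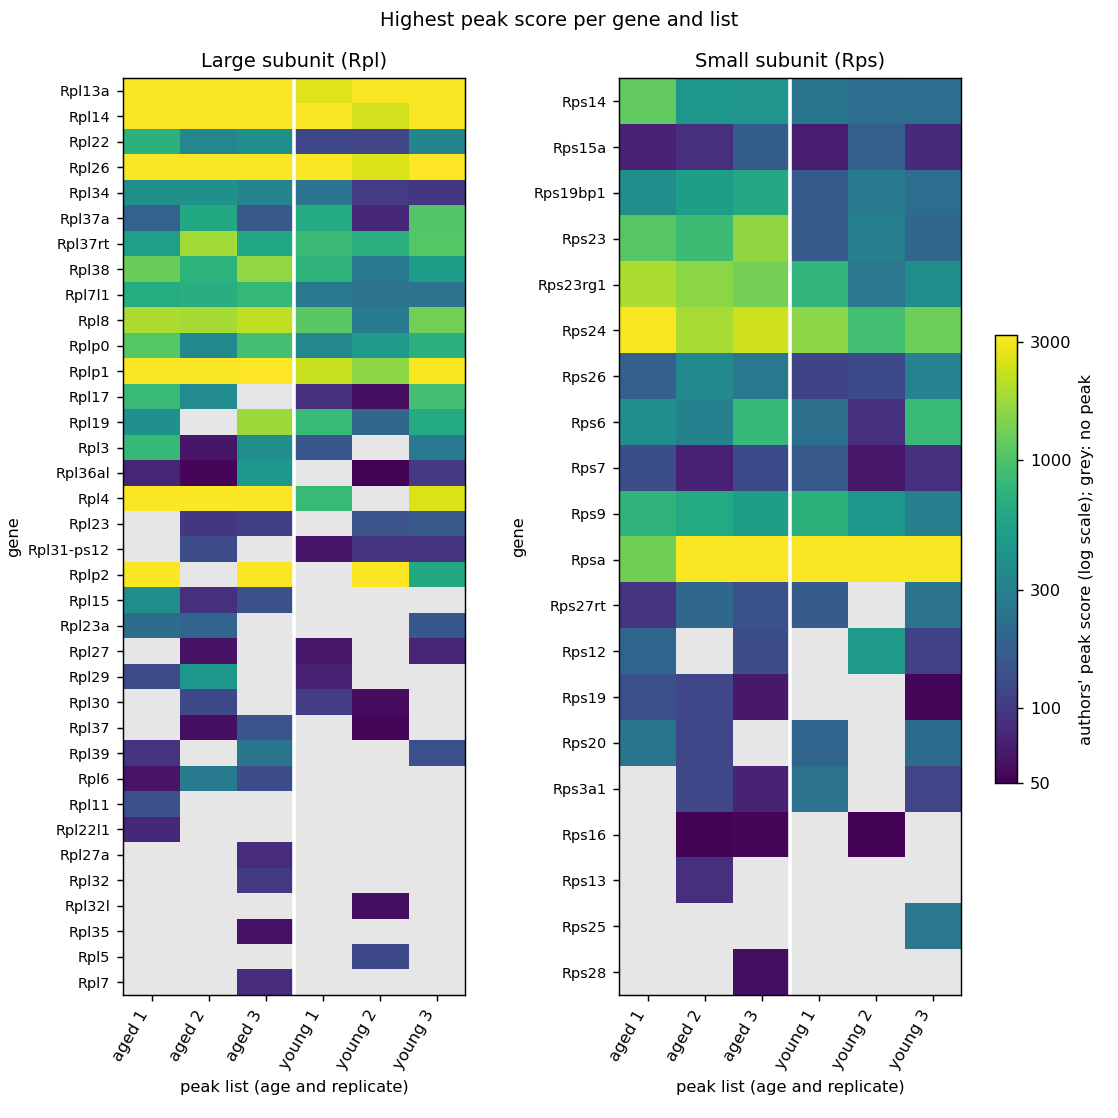
Highest peak score (colour, log scale) of ribosomal protein genes with a peak, in rows, in the 3 aged and the 3 young lists, in columns, with Rpl genes in the left panel and Rps genes in the right one. Grey marks a list without a peak; genes in all 6 lists are at the top, and Rpl15 and Rpl6 are filled in the 3 aged columns and in no young column.

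In the stalk of the large subunit, which recruits translation factors, 2 of the 3 proteins were marked throughout. Each peak carries the authors' own score, which runs upward from 50 with many peaks at exactly 3100. It describes a peak within its list, and no change with age was read from it. Rplp1 scored 3100, 3100 and 3161 in the aged lists and 2249, 1584 and 3056 in the young lists. Rplp0, the base of the stalk, scored 1062, 361 and 919 in the aged lists and 351, 465 and 706 in the young lists. All 12 values reached the median score of their own list, which lay between 141.66 and 144.015 in the aged and between 116.93 and 136.83 in the young lists. The Rplp1 region, chr9:61913283-61913521 on the minus strand, ended exactly at the annotated 3′ end of the gene. Rplp2 was marked in 2 aged lists (3100 and 3100) and 2 young lists (3100 and 621). Its peaks lay across the 2 ends of the gene, at chr7:141447370-141447707 over the start and at chr7:141451232-141451585 over the 3′ end, with 2 aged lists and 1 young list each.

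Genes of the peptidyl transferase centre and the exit tunnel ranged widely in score. Rpl8, whose protein lies beside the catalytic centre, scored 1903, 1828 and 2159 in the aged lists and 1102, 272 and 1311 in the young lists. Rpl3, another protein of that centre, had a peak in 3 aged lists (806, 64.1 and 392) and 2 young lists (153 and 280.4). Its most frequent region, chr15:80080896-80081783, overlapped a snoRNA annotated as LOC115488570 and was found in 2 aged and 2 young lists. Rpl4, which lines the tunnel through which the new protein leaves, scored 3100 in each of the 3 aged lists, and 839 and 2535 in 2 of the 3 young lists. Young list 2, the shortest of the 6, was the one without it. Rpl17, also in the tunnel wall, was marked in 2 aged lists (821 and 369) and 3 young lists (89.4, 58.1 and 927). Rpl39 was marked in 2 aged lists (94.2 and 249) and 1 young list (139). These values lay on both sides of the list medians. At the tunnel's mouth, Rpl19 was marked in 2 aged lists (404 and 1750.3) and 3 young lists (836, 199.98 and 632). Rpl23a was marked in 2 aged lists (217 and 193) and 1 young list (155), and Rpl35 in 1 aged list (61.2) and 0 young lists. The region of Rpl23a overlapped the spans of Snord42a and Snord4a, box C/D snoRNAs hosted by that gene, and of the neighbouring gene Tlcd1. It lay partly outside the Rpl23a span. The strand of Rpl23a was unknown and either was accepted, so whether these peaks belong to Rpl23a or to Tlcd1 is uncertain.

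The highest scores among the remaining large-subunit genes lay at their 3′ ends. Rpl13a, known in human myeloid cells for a second role in silencing inflammatory mRNAs, scored 3100 in each aged list and 2642, 3100 and 3100 in the young lists, at chr7:45125558-45126032. Rpl14 scored 3100 in each aged list and 3100, 2411 and 3100 in the young lists. Rpl26, whose human protein binds the p53 mRNA, scored 3100 in each aged list and 3100, 2574 and 3187 in the young lists, at chr11:68904365-68904534. In these 3 genes the region in all 6 lists had its midpoint between 90.5% and 97.1% of the way from the 5′ to the 3′ end. Rpl14 and Rpl26 each had 2 further regions nearer the start, found in 3 to 5 of the 6 lists. Lower scores were seen at the 3′ ends of Rpl22 and Rpl34. Rpl22, the protein tagged in mice made to isolate ribosomes from chosen cells, scored 720.3, 341 and 397 in the aged lists and 123, 118 and 339.6 in the young lists. Rpl34 scored 399.6, 405 and 329 in the aged lists and 242, 104 and 98.8 in the young lists, and the last 2 of these lay under the median of their lists.

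Rpl38, which in mice is needed for the translation of a set of Hox mRNAs, had its all-list region, chr11:114668609-114668814, at 19.8% of the span. It scored 1252, 734 and 1635 in the aged lists and 749, 268 and 518 in the young lists. A second Rpl38 region at 88.1% of the span was found in 3 aged and 2 young lists. Rpl37a scored 184, 629 and 159 in the aged lists and 648, 81.3 and 1059.6 in the young lists. Its values spread over a wide range within each age and overlapped between the ages. The region of Rpl37a in all lists lay at 18.6% of the span, and one at 93.9% was found in 1 aged and 2 young lists. Rpl7l1, a paralog of Rpl7, scored 657, 683 and 794 in the aged lists and 269, 243 and 243 in the young lists, with its all-list region at 9.36% of the span. Rpl37rt, named as a retrotransposed copy of Rpl37, scored 527, 1792 and 609 in the aged lists and 847, 700.0 and 1064 in the young lists. Reads of such copies cannot be told apart from those of the parent gene where the sequences are alike.

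Presence at 1 age alone, defined as a peak in 3 of 3 lists of that age and 0 of 3 of the other, was found for Rpl6 and Rpl15 in aged tissue and for no ribosomal protein gene in young tissue. This rule was met by 2 of the 58 genes with a peak in the aged direction (3.45%), against 4.24% of all genes with a peak, and by 0 in the young direction, against 0.808%. Both shares were close to or under those of all genes. Rpl6 scored 62.6, 274 and 134 in the aged lists, in a single region at chr5:121208782-121209241 on the plus strand, which ended at the annotated 3′ end. Rpl15, which lies in the core of the subunit, scored 390.3, 87.6 and 139 in the aged lists. These 3 peaks fell in different regions, 1 in each list, at 71.7%, 16.9% and 1.9% of the span. When every list was trimmed to the 8549 highest-scoring peaks, the length of the shortest, no ribosomal protein gene met the rule for aged tissue, against 1.36% of all genes with a peak at that length. Rpl31-ps12, a gene whose peaks also lay in the span of Spag6l, scored 129 in 1 aged list and 63.5, 93.5 and 95.5 in the young lists.

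The remaining large-subunit genes were marked in some lists of both ages or in few lists. Rpl36al had a peak in 3 aged and 2 young lists, and Rpl23 in 2 aged and 2 young lists. Rpl29 and Rpl37 were each marked in 2 aged lists and 1 young list, and Rpl27 and Rpl30 in 1 aged and 2 young lists. Rpl11, which with Rpl5 and 5S ribosomal RNA forms the particle that binds Mdm2 when ribosome assembly is disturbed, had peaks in 1 aged list. Rpl5 had a peak in 1 young list, in a region that also lay in the span of Dipk1a. Rpl7, Rpl22l1, Rpl27a and Rpl32 were each marked in 1 aged list, and Rpl32l, within the span of Map7, in 1 young list.

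Among small-subunit genes, the widest coverage was found in Rps24. It is a gene mutated in some families with Diamond-Blackfan anaemia, a failure of red cell production. Its best scores were 3059, 1858 and 2379.7 in the aged lists and 1562, 914 and 1280.0 in the young lists. No other ribosomal protein gene had more than 1 region in all 6 lists, and Rps24 had 3, at chr14:24491907-24492329, chr14:24492895-24494377 and chr14:24494881-24495859 on the plus strand. A further region, chr14:24490681-24490758, began 3 bases past the annotated start and was found in 2 aged lists and 1 young list. Rpsa, which is also known as the precursor of a laminin receptor, scored 1288, 3100 and 3100 in the aged lists and 3100 in each young list. Its region near the start, chr9:120128258-120128622, was in all 6 lists, and the one at 83.6% of the span, chr9:120131400-120131881, was missing from 1 aged list.

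In the decoding and mRNA-channel group, Rps23, a protein of the decoding centre, scored 1083, 871 and 1601 in the aged lists and 169, 305 and 199.6 in the young lists. Rps9, at the mRNA entry, scored 748, 639 and 512 in the aged lists and 725, 452 and 308 in the young lists. Rps26, at the mRNA exit, scored 179.8, 363 and 267 in the aged lists and 118, 128 and 318 in the young lists. Rps23 and Rps9 were marked in the last 20% of the span in all lists, while no region of Rps26 was in more than 4 lists. Rps14, whose loss of 1 copy underlies the anaemia of human 5q deletion, scored 1186, 452 and 441 in the aged lists and 256, 223 and 225 in the young lists. Its region in all lists lay over the annotated start, which was seen in no other gene of the set in all 6 lists. Rps6, the substrate of the S6 kinases, scored 387, 309.8 and 808 in the aged lists and 233, 88.3 and 837 in the young lists, over the last part of the gene.

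Lower scores were found in Rps7 and Rps15a. Rps7, another Diamond-Blackfan gene, scored 136, 73.0 and 126 in the aged lists and 159, 65.1 and 88.5 in the young lists, spread over 4 regions of which none was in more than 4 lists. Rps15a scored 76.2, 87.9 and 171 in the aged lists and 68.7, 179 and 83.4 in the young lists. The values of both genes overlapped between ages and lay under the median of their lists in most lists. Rps19, the gene mutated most often in Diamond-Blackfan anaemia, had a peak in 3 aged lists (137, 121 and 66.3) and in 1 young list (52.7, near the lowest score kept). The label of the small subunit also covers genes that encode no standard subunit protein. Rps19bp1, a binding partner of Rps19 also known as a regulator of Sirt1, scored 390.0, 512 and 613 in the aged lists and 163, 284 and 225 in the young lists. Rps23rg1, a retroposed relative of Rps23 studied in mice for its effect on amyloid and tau, scored 1913, 1559 and 1336 in the aged lists and 776, 259 and 396 in the young lists. Its peaks lay at the end of a 16779-base span and over the pseudogene Rps23-ps2, so the source of these reads is uncertain.

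The other small-subunit genes were seen in fewer lists. Rps27rt had a peak in 3 aged and 2 young lists. Rps12, Rps20 and Rps3a1 were each marked in 2 aged and 2 young lists. Rps20 is one of the proteins that carry ubiquitin after ribosomes collide, as described in human cells. The Rps12 region at chr10:23785184-23786193, in 2 aged and 2 young lists, overlapped Snora33 and Snord100, snoRNAs hosted by the gene. Its other region, chr10:23786231-23786880, was in 1 aged and 1 young list and overlapped a snoRNA annotated as LOC115487513. Rps16 was marked in 2 aged lists and 1 young list, Rps13 and Rps28 in 1 aged list each, and Rps25 in 1 young list.

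No peak on the gene's own strand was found in any list for 33 genes (36.3%). Of the large subunit they included Rpl10, Rpl10a, Rpl10l, Rpl12, Rpl13, Rpl18, Rpl21, Rpl24, Rpl28, Rpl31, Rpl34-ps1, Rpl35a, Rpl36, Rpl36a, Rpl39l, Rpl3l, Rpl41, Rpl7a and Rpl9. Of the small subunit they included Rps10, Rps15, Rps18, Rps2, Rps21, Rps27, Rps27a, Rps27l, Rps29, Rps3 and Rps4x. The list holds forms known from other tissues, such as the testis forms Rpl10l and Rpl39l and the muscle form Rpl3l, beside core proteins such as Rps3 and Rpl10. The genes without a peak spanned a median of 2628 bases and those with one 3249.5 bases. The absence of a peak does not show that the mRNA is unmethylated, since the depth behind each list is unknown and many of these genes have pseudogene copies with like sequence.

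Ribosomal protein genes with a peak were 1.14 times as many in aged as in young lists. All genes with a peak were 1.25 times as many, and all peaks 1.51 times as many. No difference between the ages in ribosomal protein genes passed its test. The genes numbered 41, 43 and 44 in the aged lists and 35, 36 and 41 in the young lists. The ages did not overlap except for a tie at 41. The means were 42.7 ± 1.53 in aged and 37.3 ± 3.21 in young tissue (SD, n = 3 each), a difference of 5.33 (two-sided exact permutation p = 0.2, adjusted p = 0.386 over 9 tests). With 3 lists against 3 the smallest p is 0.1, so no test of this kind could pass 0.05. Large-subunit genes numbered 25, 25 and 27 in the aged lists and 21, 23 and 24 in the young lists (exact permutation p = 0.1, adjusted p = 0.3), and these groups did not overlap. The counts of all genes with a peak did not overlap either, at 6342 to 6777 in aged and 4894 to 5442 in young lists. Small-subunit genes numbered 16, 18 and 17 in the aged lists and 14, 13 and 17 in the young lists (exact permutation p = 0.3, adjusted p = 0.386), which overlapped. The share of large-subunit genes minus the share of small-subunit genes averaged −2.74 percentage points in aged and −1.43 in young lists. The difference between the ages in that gap was −1.31 percentage points (exact permutation p = 0.9), so the test did not separate the subunits. At equal list length the direction turned, with 34 ± 2 genes in aged and 37 ± 2.65 in young tissue (SD, n = 3 each, exact permutation p = 0.3). With the peaks at or above each list's median score alone, the difference was 1.33 genes (exact permutation p = 0.7).

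Peaks in ribosomal protein genes numbered 54, 55 and 63 in the aged lists and 47, 47 and 56 in the young lists (exact permutation p = 0.3, adjusted p = 0.386). The 2 ages overlapped. As a share of all peaks they made up 0.356%, 0.393% and 0.441% of the aged lists and 0.475%, 0.550% and 0.539% of the young lists. Here every aged list lay under every young list, with a mean of 0.396% ± 0.0427 in aged and 0.521% ± 0.0402 in young tissue (SD, n = 3 each), 0.760 times as much in aged tissue (exact permutation p = 0.1, adjusted p = 0.3). At equal list length the difference kept its sign but was −0.0585 percentage points (exact permutation p = 0.3), against −0.125 points between the lists as deposited. Peaks in other genes under 10 kb numbered 1294, 1235 and 1240 in the aged lists, which held 15189, 14008 and 14294 peaks. In the young lists they numbered 907, 868 and 1004, of 9887, 8549 and 10392 peaks. The share of the list held by these other short genes was thus also lower in every aged than in every young list. As a share of all genes with a peak, ribosomal protein genes were 0.605%, 0.678% and 0.682% in aged and 0.664%, 0.736% and 0.753% in young lists (exact permutation p = 0.3). That difference was −0.0625 percentage points over the lists as deposited and −0.205 points over peaks at or above the median score (exact permutation p = 0.1), but 0.0110 points at equal list length. The peaks covered 21189 ± 1086 bases of these genes in aged and 18479 ± 1175 bases in young tissue (SD, n = 3 each, exact permutation p = 0.1, adjusted p = 0.3). Of the 58 genes with a peak, 21 (36.2%) were marked in more aged than young lists, against 42.7% of all genes with a peak. The reverse held for 9 (15.5%, against 17%) and equal numbers for 28 (48.3%, against 40.2%).

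**Figure D2:**
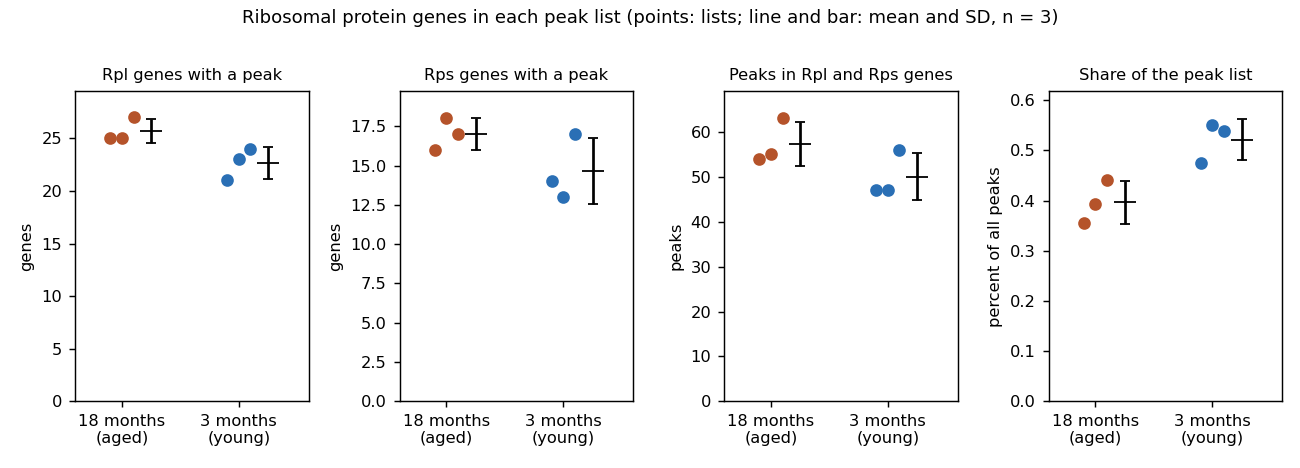
From left to right, the number of Rpl genes with a peak, of Rps genes with a peak and of peaks in both, and these peaks as a percent of all peaks of the list; each point is 1 list, and the line and bar beside it are the mean and SD of 3 lists. The aged points lie above the young ones for Rpl genes (25 to 27 against 21 to 24) and under them for the share of the list (0.356% to 0.441% against 0.475% to 0.550%).

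Touching peaks of the 6 lists were joined into regions, which allow a finer count than whole genes. The 58 genes held 98 regions, with 1 region in 33 genes and 2 to 4 in the other 25. Of the regions, 22 (22.4%) were in all 6 lists, against 17.6% of the 24044 regions in all genes. Another 30 (30.6%) were in 1 list, against 34.7%. The 22 shared regions lay in 20 genes, 12 of them in large-subunit and 10 in small-subunit genes. Rpl6 held the single region found in 3 aged and 0 young lists (1.02%, against 5.18% of regions in all genes), and 0 regions were found in 3 young and 0 aged lists (against 0.62%). Of the 68 regions in at least 2 lists, 38 (55.9%) had the same start and end in each, against 66.6% of such regions in all genes.

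**Figure D3:**
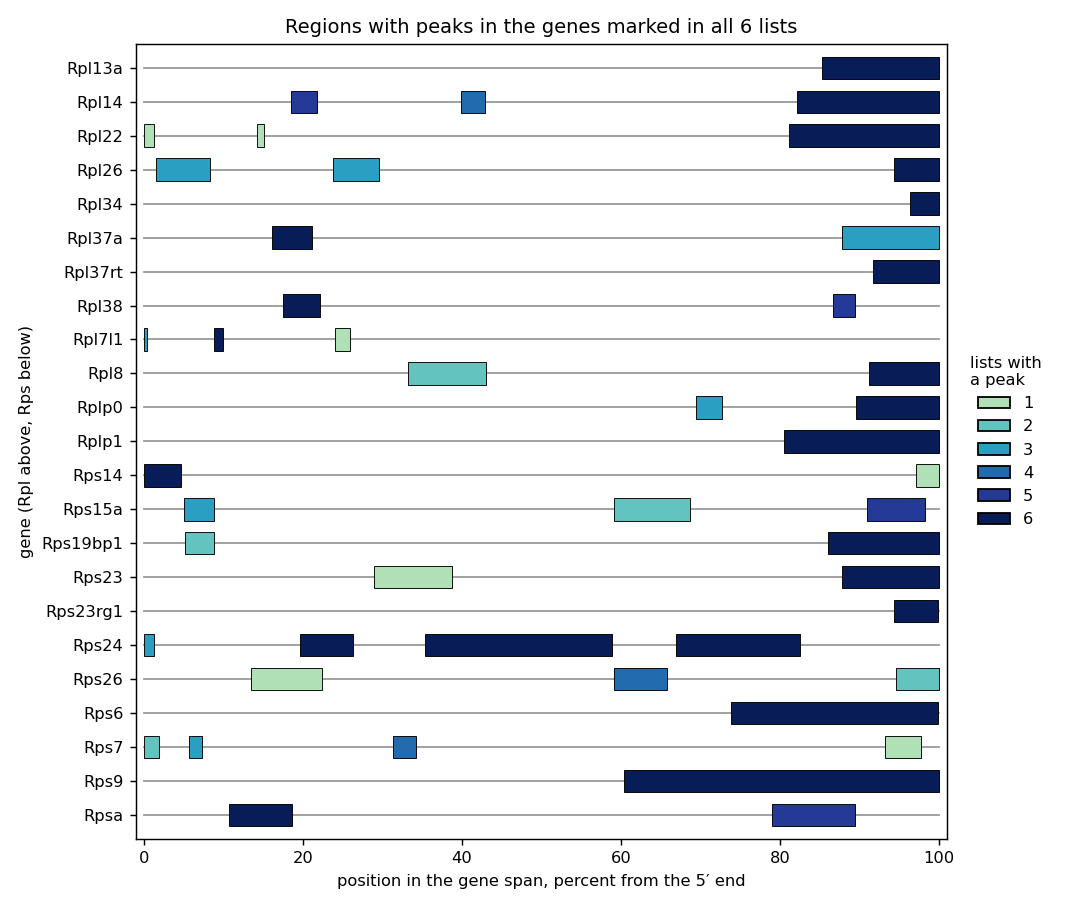
Regions with a peak in the 23 genes marked in all 6 lists, by position in percent of the gene span from the 5′ to the 3′ end; the colour gives the number of lists with a peak in the region. Of the 22 regions in all 6 lists, 14 have their midpoint in the last 20% of the span, 9 in Rpl and 5 in Rps genes, and Rps24 holds 3 of the 22.

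Peaks of ribosomal protein genes gathered at the 3′ end of the gene, and more so in the large subunit. The midpoint lay in the last 20% of the span for 153 of 319 peaks (48.0%), against 36.5% in other genes and 31.3% in other genes under 10 kb. The share was 47.7% ± 1.38 in aged and 48.4% ± 0.960 in young lists (SD, n = 3 each). Large-subunit genes had 54.6% of their peaks there and small-subunit genes 39.0%. The large subunit was higher in each list, with 56.3%, 56.7% and 50% in the aged lists and 55.6%, 55.6% and 54.8% in the young lists. The small subunit had 38.1%, 33.3% and 44.4% in the aged lists and 40%, 40% and 37.5% in the young lists. This gap was noticed in these lists and has no test of its own, since many of the same regions recur in all 6. In the first 20% lay 80 peaks (25.1%), against 15.9% in other genes and 21.9% in other genes under 10 kb. The share in the first 50% of the span was 42.9% ± 1.47 in aged and 42.2% ± 1.63 in young lists (SD, n = 3 each, exact permutation p = 0.6, adjusted p = 0.675). The spans hold introns, and no exon table was used, so these positions are in the gene and not in the mRNA.

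**Figure D4:**
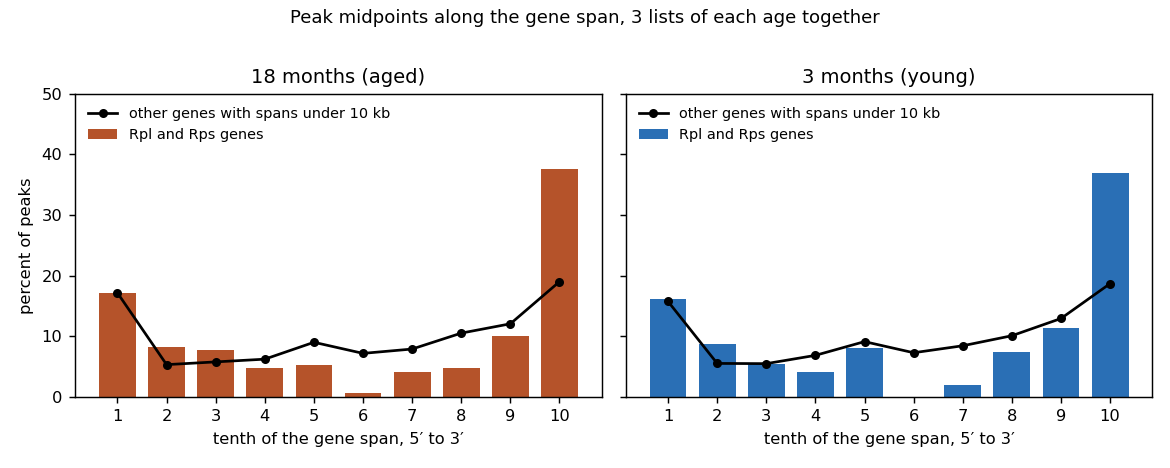
Percent of peaks with their midpoint in successive bins of 10% of the gene span, from 5′ to 3′, in aged (left) and young (right) lists; bars are ribosomal protein genes and the line is all other genes spanning under 10 kb. The last bin holds 37.6% of the peaks of ribosomal protein genes in aged and 36.9% in young lists, against 19.0% and 18.7% in the other short genes.

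The outer edge of many peaks fell exactly on the annotated 3′ end. This was so for 75 of the 319 peaks (23.5%), against 4.28% in other genes and 16.0% in other genes under 10 kb. It held for 62 peaks of the large subunit (33.9%) and 13 of the small subunit (9.56%). Many of these peaks are the same regions found again in other lists, so this gap was not tested. Per list the share over both subunits was 21.2% ± 3.05 in aged and 26.3% ± 3.15 in young tissue (SD, n = 3 each). Peaks of the large subunit were narrower, with a median width of 230 bases against 386 bases in the small subunit and 538.5 bases in other genes under 10 kb. Ribosomal protein genes held 1.35 ± 0.0756 peaks per marked gene in aged and 1.34 ± 0.0348 in young lists, against 2.23 ± 0.0153 in aged and 1.84 ± 0.0896 in young lists for other genes (SD, n = 3 each). In other genes under 10 kb it was 1.25 ± 0.0120 in aged and 1.18 ± 0.0259 in young lists.

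Most peaks of the set scored above the middle of their list. Of the 319 peaks, 212 (66.5%) reached the median of their own list, against 49.96% of the peaks of other genes. The share was 65.5% ± 4.00 in aged and 67.6% ± 3.56 in young lists (SD, n = 3 each), and 68.3% in the large and 64.0% in the small subunit over all lists. Of the 23 genes in all 6 lists, 16 had a best peak at or above the median in each list. The score stood at 3100 or above in 29 peaks (9.09%), against 4.16% in other genes and 5.35% in other genes under 10 kb. Of these peaks, 24 lay in large-subunit genes (13.1% of the peaks of that subunit) and 5 in small-subunit genes (3.68%). The 24 were all in Rpl4, Rpl13a, Rpl14, Rpl26, Rplp1 and Rplp2, and the 5 were all in the same region of Rpsa. Transcript abundance, which is high for these genes, was not measured here.

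The annotated start sites were read from the RefSeq promoters of GRCm38.p6, which covered 82 starts of 70 of the genes. A run of at least 5 C or T that began within 5 bases of the annotated start was found in 29 (35.4%), against 4559 of the 21181 starts of other genes (21.5%). The letters CTTTCC, taken from the start-site motif, lay between 10 bases before and 14 after the start on the same strand in 13.4% of ribosomal protein gene starts and 0.954% of others. The letters CTCTTT were found there in 8.54% and 0.718%, and CTTTTC in 4.88% and 0.680%. These motifs can overlap each other. In the whole window of 250 bases before to 50 bases after the start, on both strands, CTTTCC was present in 50% and 25.8%, CTCTTT in 40.2% and 21.5%, and CTTTTC in 24.4% and 20.9%. A match is a description of letters and was not set against the peaks.

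Of 14 annotated starts, in 13 genes, with a peak region within 20 bases (Rps14 not counted), 5 (35.7%) held a run of at least 5 C or T and 9 (64.3%) did not, which is close to the 35.4% of all starts of the set. For 4 of the 5 and 2 of the 9, chosen as examples, the 40 bases before that start and the 20 bases from it onward are shown, because the start is where the TOP motif lies. Capitals mark a run of 5 or more C or T that begins within 5 bases of the start. The windows are Rplp2 at chr7:141447611-141447670 (plus strand), Rps24 at chr14:24490638-24490697 (plus), Rpl15 at chr14:18270967-18271026 (minus), Rps27rt at chr9:114982720-114982779 (minus), Rps7 at chr12:28635934-28635993 (minus) and Rpl37 at chr15:5116573-5116632 (plus), all GRCm38.p6.
Rplp2: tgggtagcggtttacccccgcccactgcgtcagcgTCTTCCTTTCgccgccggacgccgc
Rps24: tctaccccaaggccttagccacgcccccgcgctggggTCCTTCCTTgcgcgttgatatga
Rpl15: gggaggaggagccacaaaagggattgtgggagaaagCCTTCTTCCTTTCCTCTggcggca
Rps27rt: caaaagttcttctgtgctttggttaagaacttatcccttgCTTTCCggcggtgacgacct
Rps7: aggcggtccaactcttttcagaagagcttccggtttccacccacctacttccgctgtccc
Rpl37: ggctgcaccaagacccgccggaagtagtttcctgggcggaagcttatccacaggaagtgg
The first 4 hold such a run and the last 2 do not. Rps27rt spans 374 bases and carries the same suffix as Rpl37rt, named above as a retrotransposed copy. The Rps7 region, chr12:28635856-28635953, was in 2 young lists, and the Rpl37 region, chr15:5116613-5116684, in 2 aged lists and 1 young list. The Rpl15 peak over its start, chr14:18270823-18271029, was in 1 aged list.

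Other genes of the pathway were counted by list. Fau, which encodes a protein of the small subunit fused to a ubiquitin-like protein, had a peak in all 6 lists. Of 40 genes of ribosome biogenesis, 31 had a peak (77.5%, against 43.5% of all genes). Of these 31, 18 had one in all 6 lists, against 32% of all genes with a peak. Biogenesis genes with a peak numbered 24.7 ± 0.577 in aged and 23 ± 1 in young lists (SD, n = 3 each). Rrn3, an initiation factor of RNA polymerase I, was marked in the 3 aged lists and 0 young lists, and no gene of that list in the reverse way. Of 17 regulators of ribosomal protein mRNA translation and S6 kinases, 12 had a peak (70.6%, against 43.5% of all genes), numbering 10, 11 and 11 in the aged lists and 7, 7 and 7 in the young lists. These counts are from the lists as deposited. All genes with a peak did not overlap between the ages there either, at 6342 to 6777 in aged and 4894 to 5442 in young lists. The S6 kinase genes of the RSK family, Rps6ka1 and Rps6ka2, met the rule for aged tissue. Of 11 genes of ribosome recycling and quality control, 8 had a peak (72.7%, against 43.5% of all genes), with 5.33 ± 0.577 in aged and 6.33 ± 0.577 in young lists (SD, n = 3 each). The lists are too small to read these counts against the 4.24% of genes that met the rule for aged tissue.

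Mitochondrial ribosomal protein genes serve the separate ribosome of that organelle. Of 78 genes, 44 (56.4%) had a peak, against 43.5% of all genes. Of these 44, 6 had one in all 6 lists, against 32% of all genes with a peak. Mitochondrial genes with a peak numbered 26, 30 and 21 in the aged lists and 16, 9 and 16 in the young lists, which did not overlap. The counts of all genes with a peak did not overlap either, at 6342 to 6777 in aged and 4894 to 5442 in young lists. All genes with a peak were 1.25 times as many in aged lists. The means of the mitochondrial genes were 25.7 ± 4.51 in aged and 13.7 ± 4.04 in young tissue, 1.88 times as many in aged tissue (SD, n = 3 each, exact permutation p = 0.1). At equal list length they were 13 ± 3 in aged and 11.3 ± 2.52 in young tissue, 1.15 times as many (SD, n = 3 each, exact permutation p = 0.6). For the cytosolic set the ratio was 1.14 over the lists as deposited and 0.919 at equal length. The percent of cytosolic genes with a peak minus the percent of mitochondrial ones was 13.98 ± 6.61 in aged and 23.5 ± 5.12 in young lists. The difference between ages in that gap was −9.52 percentage points (exact permutation p = 0.2), so the test did not separate the sets, and at equal list length it was −5.43 points (exact permutation p = 0.3). This comparison was added after the values were seen.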

How the data were processed

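The authors deposited 6 peak lists, 1 for each IP library with its input, so peaks were called per sample. The score of each peak is the authors' own value in the deposited lists. The sources used here do not give its formula, the caller's settings or the read depth. Tools named in the submitters' processing notes are HISAT2 2.0.4 and cutadapt 1.9.3, with the build mm10. A peak was assigned to every protein-coding RefSeq span (GRCm38.p6) that it overlapped by at least 1 base on the same strand. Strand came from the promoter table for 70 of the 91 genes and from the majority of peaks for 12. For the other 9, either strand was accepted, and of these Rpl23a alone had peaks, which were left out of position counts. Of 7267 genes with both sources, 99.6% had the same strand. Regions were unions of touching peaks on 1 strand. Means were compared by two-sided exact permutation tests over lists (20 assignments, Python 3.11.15, scipy 1.17.1), with Benjamini-Hochberg adjustment over 9 tests. The calling rules were tested on simulated data. No 2 lists were identical. Every gene with a peak was named, apart from a few that are not reported here. Those in all 6 lists, or in 3 of one age and at most 1 of the other, were given with the best score per list. The genes, lists and tests were chosen with earlier results of these data known. Protein sequences were not used here.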

Additional observations from a re-analysis of the deposited data

How the results depend on the processing

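The difference in the number of marked genes and of peaks turned direction at equal list length. It kept its direction with scores at or above the list median and with scores of at least 100. At equal list length the difference, aged minus young, was −3 for genes, −1.67 for large-subunit and −1.33 for small-subunit genes, −5 for peaks, 0.0110 percentage points for the share of marked genes, −1321 bases covered, −3.41 points in the first 50% of the span and 0.833 points for the subunit gap, with 0 genes in the aged-only class and 1 region in the young-only class. With scores at or above the list median, genes differed by 1.33, peaks by 3.67, the share of marked genes by −0.205 points, bases by 1622, small-subunit genes by −0.667, the subunit gap by 5.48 and the position by −0.425 points, with 0 aged-only genes and 0 aged-only regions. With scores of at least 100 genes differed by 4.67 and peaks by 6.67, there were 0 aged-only genes and the subunit gap was 3.69. That gap was 0.476 with peaks of 1 gene only and 0.795 also without Rpl37rt, Rpl32l and Rps23rg1, a setting chosen after seeing the data. With the first 500 bases in place of the first 50% of the span, the position difference was −2.16 points. There were 2 aged-only regions with either strand accepted, and with regions joined only by peaks overlapping by 50% 2 aged-only and 1 young-only. The cause was not tested, except that shorter lists hold fewer peaks by construction. Leaving out 1 list at a time, the differences ranged from 4.17 to 7.17 genes, 2.17 to 3.67 large-subunit and 1.5 to 3.5 small-subunit genes, −3.45 to 1.37 points for the subunit gap (0.714 without aged 2, 1.37 without young 2), 4.5 to 10.3 peaks, −0.148 to −0.105 points of the list, −0.0894 to −0.0375 points of marked genes, 2327 to 3388.5 bases and −0.158 to 1.45 points in the first 50% of the span (−0.0217 without aged 2). Aged-only genes numbered 2 to 3, young-only genes 0 to 1 (1 without aged 2 or aged 3), genes in all lists 23 to 26, aged-only regions 1 to 3 (2 without aged 2 or aged 3, 3 without young 3) and young-only regions 0 to 1 (1 without aged 2, aged 3, young 1 or young 2). Of all alternative values, 19 turned direction and 17 counts moved by over 1.5 times. Of 108 differences that did not turn, 24 moved by over 1.5 times. Same-numbered aged and young lists share only a number: their deviations correlated at 0.0159, 0.0189 and 0.0174 over 9530 genes, and differently numbered ones at −0.0147 to −0.00271, so each list correlated best with its own number. A replicate block (exact sign flips over 3 pairs, smallest p 0.25) gave p = 0.25 for genes, large-subunit genes, peaks, both shares and bases, 0.5 for small-subunit genes and 1 for the subunit gap and the position, and changed no call. Depth per list is unknown, so a missing peak may reflect few reads.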

Other observations

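Peaks also overlapped the spans of named ribosomal protein pseudogenes. Of 324 named Rpl and Rps pseudogenes in the annotation, 20 overlapped a peak on either strand, 17, 14 and 15 in the aged lists and 15, 16 and 15 in the young lists. Rpl7a-ps12 and Rps7-ps3 had the same score in each list, so the 20 do not all stand for separate peaks. Rps23-ps1, Rps23-ps2 and Rps3a3 lay in the protein-coding genes Gm5148, Rps23rg1 and Pde4d, so the source of their peaks is uncertain. Rplp2-ps1 scored 3100 in all 6 lists, but it lay inside the span of the protein-coding gene Wdr89, so the source of its peaks is uncertain too. Rplp2 itself had a peak in 2 aged and 2 young lists. Rpsa-ps10 scored 1267, 2269 and 3100 in the aged lists and 866, 1010.0 and 2059 in the young lists. Rps12-ps3 scored 1399.5, 999.97 and 1453 in the aged lists and 122, 99.5 and 606 in the young lists. Rps18-ps3 and Rps10-ps1 had a peak in all 6 lists, while Rps18 and Rps10 had none in any. The sources used here do not say how reads that match both a gene and its copies were treated.

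On the strand opposite to a ribosomal protein gene, 10 peaks overlapped its span. Rpl19 had 3 that lay wholly inside it, 1 in each aged list and 0 in young lists, at chr11:98022342-98022634 in Cacnb1, with scores of 73.9, 206.9 and 66.6. The other 7 only touched the end of a span. Of these, 6, 1 in each list at chr2:39001294-39001584 in Wdr38, overlapped Rpl35 by 4 bases, and 1, in a young list in Cand2, overlapped Rpl32 by 42 bases.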
